A study of Homo sapiens with 12 samples.

Results

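The comparison asked how far the response of human MCF10A breast epithelial cells to TIP60 siRNA differed between cells without and cells with an active copy of TIP60 that the siRNA cannot target. It was read as the siRNA effect, siTIP60 minus siControl within a replicate number, averaged over 2 lines that lack such a copy, minus the same effect in the line that has one. This quantity is called the interaction. Its members were the cassette exon events, exons that are either kept or skipped between the same neighbours, for which every one of the 12 libraries held 10 or more isoform-specific reads (reads that fit one form only). These were 2695 of the 8712 events listed in any library and of the 4992 listed in all of them, and they lay in 1885 genes.

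The lines without an active resistant copy were MSCV cells, which stably carry an empty vector, and KD-TIP60 cells, which stably express siRNA-resistant catalytically dead TIP60. The line set against them was WT-TIP60, which stably expresses siRNA-resistant wild-type TIP60. Each line received siTIP60 or siControl with a lipid reagent and was harvested 72 h later, with 2 libraries in each of the 6 groups. Whether each derivative is a pool or a clone, and what drives the constructs, is not given in the sources used here. All 3 derivatives share the MCF10A background and their endogenous KAT5 gene. WT-TIP60 was the only line with an active resistant copy, so that the copy cannot be told apart from any other trait of that line. Below, an effect with an active copy is the effect in WT-TIP60 cells. No label says that the 2 libraries of a group came from separate cultures, so that p-values measure the spread between these libraries.

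TIP60, the product of KAT5, is a lysine acetyltransferase and the catalytic subunit of the NuA4 complex, which acetylates histones and other proteins, among them p53, and acts in transcription and DNA repair. A resistant wild-type copy is the usual control for siRNA specificity. A catalytically dead copy keeps the protein without its enzymatic activity. Cassette exons are chosen as the transcript is made, under the control of SR proteins, hnRNPs and tissue-restricted regulators.

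KAT5 itself had 1 listed event, a 156-nt exon on chromosome 11, which fell short of the read minimum and is given as a check of the labels. Reads carrying the exon stood at 2.52 and 1.52 RPM (reads per 1000000 event reads of the library) in siTIP60 libraries of MSCV cells (replicates 1 and 2), against 17.2 and 5.84 in their siControl libraries. They stood at 3.95 and 0 with siTIP60 against 12.02 and 6.38 with siControl in KD-TIP60 cells, and at 2.74 and 1.34 with siTIP60 against 11.6 and 5.31 with siControl in WT-TIP60 cells. The form with the exon was therefore lower with siTIP60 in every same-number pair of all 3 lines, on 0 to 9 reads a library with siTIP60, where a count of 0 allows up to 2.35 RPM. Reads of the form without the exon, which dominated the lines with a construct, were 885.3 and 28.2 RPM in siTIP60 libraries of KD-TIP60 cells, 2.52 and 0 in those of MSCV cells, and 1654 and 76.8 in those of WT-TIP60 cells. With siControl they were 987.7 and 35.1 in KD-TIP60 cells, 8.38 and 0.731 in MSCV cells, and 2291 and 93.0 in WT-TIP60 cells. In both lines with a construct they were lower with siTIP60 in each same-number pair. They were also far lower in replicate 2 than in replicate 1 of these lines. The catalytically dead copy thus gave fewer reads than the wild-type copy, and the part of that difference in the interaction was not tested.

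Depth followed the replicate number and not the group. Libraries numbered 1 held 1983221 to 2280488 event reads with a median of 21 to 27 isoform-specific reads an event, and libraries numbered 2 held 1277953 to 1566296 with a median of 13 to 17. The numbers differed in more than depth. Reads that fit neither form made up 50.1% to 53.2% in libraries numbered 1 and 64.5% to 65.7% in those numbered 2. Deviations from the group means went together within a replicate number (Pearson r 0.706 to 0.779 for inclusion and 0.559 to 0.933 for event reads over 15 pairs of groups, across events), and the number was kept as a block in the fit. Of 26 epithelial marker genes 7 had tested events, among them CDH1 and ITGB4. Of 22 mesenchymal markers 1 was tested, FN1, and of 15 immune markers 0 were. A gene without a tested event can still be expressed, so that these counts do not show which cell types were absent. The limit that a count of 0 allows covers counting error only, while the 95% intervals come from the spread between libraries in the limma fit.

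The 6 exons below are a selection, made after their values were seen, from the named exons that lie wholly in coding sequence, to show a pair of each kind described. Capitals mark the cassette exon and the lower-case letters are the 12 bases of the exons on either side, 5′ to 3′, from GENCODE 29 transcripts on hg38. The first pair had lower inclusion after siTIP60 to a greater extent without an active copy. MACF1 and DST are paralogues whose exons, equal in length, differed in opposite directions without a call for either. The last pair lost more inclusion where the active copy was present.
MARK3 (chr14:103498502-103498528, plus strand, 27 nt): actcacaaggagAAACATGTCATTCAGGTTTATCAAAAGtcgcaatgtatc
DIAPH1 (chr5:141588224-141588250, minus strand, 27 nt): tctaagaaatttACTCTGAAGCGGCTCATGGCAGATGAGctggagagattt
MACF1 (chr1:39480920-39481030, plus strand, 111 nt): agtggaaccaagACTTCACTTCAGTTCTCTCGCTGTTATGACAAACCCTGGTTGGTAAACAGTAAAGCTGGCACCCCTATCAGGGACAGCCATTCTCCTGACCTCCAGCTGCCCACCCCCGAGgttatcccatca
DST (chr6:56463046-56463156, minus strand, 111 nt): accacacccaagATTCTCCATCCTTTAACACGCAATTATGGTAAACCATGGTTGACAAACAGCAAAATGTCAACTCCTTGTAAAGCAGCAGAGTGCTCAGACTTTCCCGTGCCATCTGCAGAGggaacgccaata
VRK3 (chr19:50009236-50009385, minus strand, 150 nt): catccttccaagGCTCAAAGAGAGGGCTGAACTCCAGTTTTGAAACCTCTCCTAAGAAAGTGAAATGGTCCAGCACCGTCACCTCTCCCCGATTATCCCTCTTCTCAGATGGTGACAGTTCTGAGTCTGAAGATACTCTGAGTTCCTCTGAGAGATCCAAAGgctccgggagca
HDAC7 (chr12:47795906-47796016, minus strand, 111 nt): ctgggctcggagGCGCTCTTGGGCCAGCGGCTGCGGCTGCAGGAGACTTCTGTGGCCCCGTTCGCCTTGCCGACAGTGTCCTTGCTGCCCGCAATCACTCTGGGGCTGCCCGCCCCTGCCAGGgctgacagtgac
All 6 lengths are multiples of 3, so that each exon can be skipped without a shift of the reading frame. Of all 2526 tested exons on primary chromosomes, 56.1% had such a length. The MARK3 and DIAPH1 exons are 27 nt long, and 5.9% of tested exons had 50 nt or fewer.

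No exon passed the correction for a different siRNA effect on inclusion without and with an active copy (limma, two-sided, Benjamini-Hochberg over 2695 events, threshold 0.05; 0% called, smallest adjusted p = 1.00). At an unadjusted p under 0.05 the interaction was lower in 54 events (2% of those tested) and higher in 41 (1.52%). Together these are a smaller share than the threshold of 0.05 itself. The median standard error of the interaction was 0.0362 on the inclusion scale, which runs from 0 to 1. All 4 same-number differences of the lines without an active copy lay below both differences of WT-TIP60 cells in 137 events (5.08%) and above both in 96 (3.56%). The share of events so separated without any true difference was not estimated, so that these counts show no excess. Between replicate numbers 1 and 2 the interaction had r = 0.116 across events, against 0.604 for the siRNA effect averaged over the 3 lines. The exons named next are 8 in each direction, picked by smallest p and not by size, and were not called. Only events on primary chromosomes that match a single gene were eligible. Their interaction also had to have the same sign and a size of at least 0.05 in both replicate numbers.

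SLC37A2, a sugar-phosphate transporter of the endoplasmic reticulum, had the lowest interaction among the named exons (57 nt, chr11:125086204-125086260). Inclusion was 0.12 and 0.20 in siTIP60 libraries of MSCV cells, against 0.58 and 0.68 with siControl. It was 0.13 and 0.15 with siTIP60 against 0.40 and 0.57 with siControl in KD-TIP60 cells, and 0.64 and 0.64 with siTIP60 against 0.70 and 0.53 with siControl in WT-TIP60 cells. The 4 siTIP60 libraries of the lines without an active copy were thus the 4 lowest of the 12, and the WT-TIP60 pair lay among the siControl libraries. The interaction was -0.43 (SE 0.0924, 95% interval -0.658 to -0.207, limma unadjusted p = 0.00324, adjusted p = 1.00), on 12 to 191 isoform-specific reads a library. Reads of the form that skips the exon were 30.7 and 20.5 RPM in siTIP60 libraries of MSCV cells against 7.91 and 1.46 with siControl, 67.5 and 29.7 with siTIP60 against 14.4 and 0.638 with siControl in KD-TIP60 cells, and 9.6 and 2.67 with siTIP60 against 4.54 and 1.99 with siControl in WT-TIP60 cells. Reads of the form that keeps the exon ranged from 5.98 to 28.35 RPM over all libraries, and in MSCV cells they were 7.55 and 11.4 with siTIP60 against 19.1 and 10.96 with siControl.

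MARK3, a microtubule affinity-regulating kinase, shared the direction but responded in all lines. Its exon had an inclusion of 0.02 in both siTIP60 libraries of MSCV cells, against 0.36 and 0.41 with siControl. KD-TIP60 cells had 0.04 and 0.07 with siTIP60 against 0.47 and 0.48 with siControl, and WT-TIP60 cells 0.11 and 0.02 with siTIP60 against 0.26 and 0.31 with siControl. The effect was -0.393 without and -0.22 with an active copy, which left an interaction of -0.172 (SE 0.0425, limma adjusted p = 1.00). The siTIP60 levels, 0.02 to 0.11, overlapped between lines near the lower end of the scale, and the WT-TIP60 siControl levels were the lowest of the siControl libraries. Lines without an active copy minus WT-TIP60 gave -0.0275 under siTIP60 and 0.145 under siControl. The MARK3 fall was larger in the lines with a higher siControl level, and the part of that level in the interaction was not tested. DIAPH1, a formin that nucleates actin filaments, had 0.74 and 0.83 with siTIP60 against 0.97 and 0.99 with siControl in MSCV cells, 0.82 and 0.84 with siTIP60 against 0.97 in both with siControl in KD-TIP60 cells, and 0.94 and 0.92 with siTIP60 against 0.97 and 0.99 with siControl in WT-TIP60 cells. All siControl libraries of DIAPH1 lay at 0.97 or above, and its interaction was -0.117 (SE 0.0301, limma adjusted p = 1.00).

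**Figure D1:**
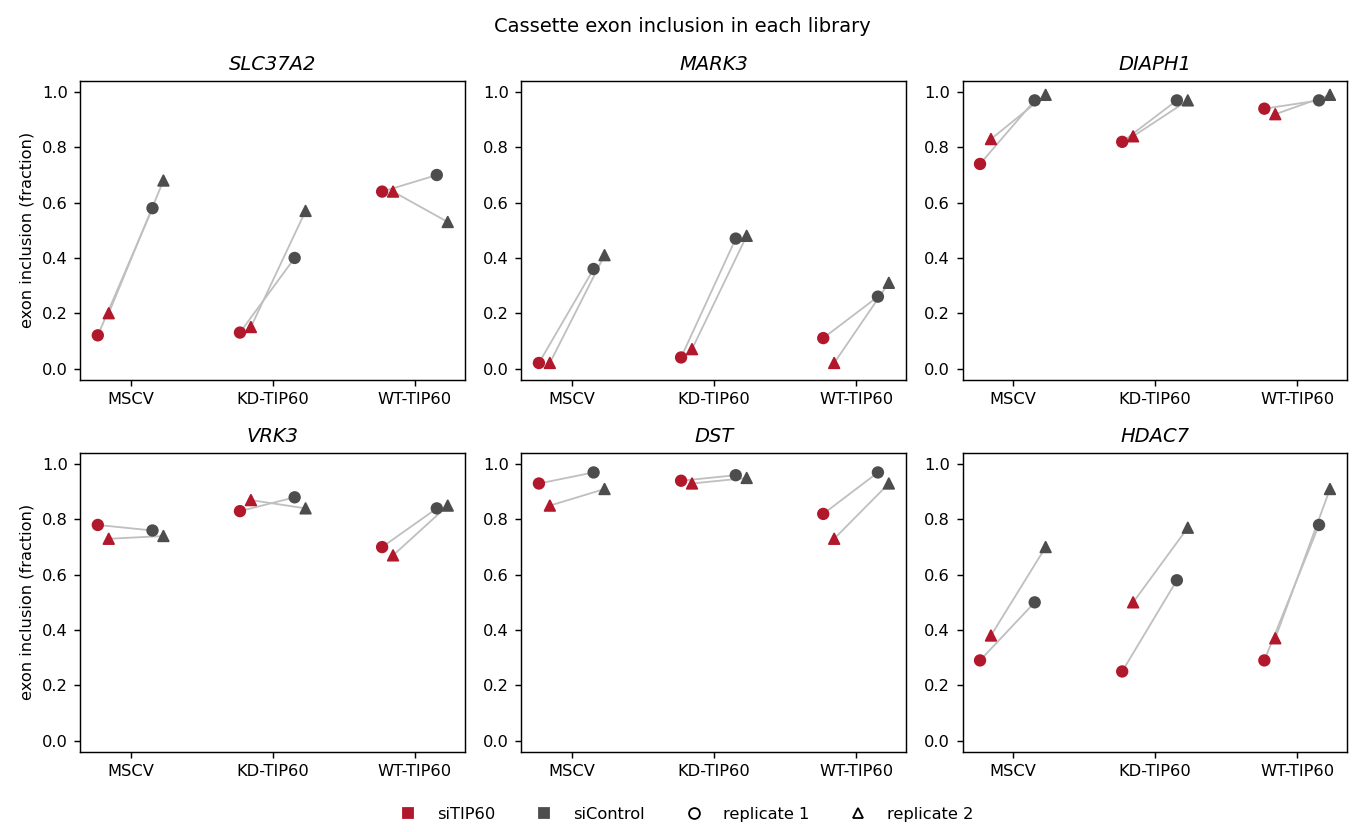
Inclusion fraction of 6 cassette exons in each of the 12 libraries, by line on the horizontal axis, with siTIP60 (red) left of siControl (grey), circles for replicate 1, triangles for replicate 2 and lines joining same-number libraries. SLC37A2 and DIAPH1 drop with siTIP60 in MSCV and KD-TIP60 cells and little in WT-TIP60 cells, while VRK3 and DST drop mainly in WT-TIP60 cells.

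The other exons with a lower interaction moved less. A 26-nt exon in the 5' UTR of HNRNPC, an hnRNP that binds nascent transcripts, had 795 to 1967 isoform-specific reads a library. Its inclusion was 0.68 and 0.72 with siTIP60 against 0.78 and 0.80 with siControl in MSCV cells, 0.65 and 0.67 with siTIP60 against 0.81 and 0.80 with siControl in KD-TIP60 cells, and 0.72 and 0.75 with siTIP60 against 0.79 and 0.80 with siControl in WT-TIP60 cells, an interaction of -0.0575 (SE 0.0138). Within each replicate number both lines without an active copy lay below WT-TIP60 under siTIP60. For USP48, a deubiquitinase, the effect was -0.0525 without and 0.06 with an active copy (interaction -0.113, SE 0.0194, limma unadjusted p = 0.00102, the smallest of all events). CPPED1, a phosphatase, and GRB2, the adaptor between receptor kinases and Ras, had interactions of -0.0725 and -0.0525. In both of them the siControl libraries of WT-TIP60 cells were the lowest within their replicate number, 0.92 and 0.93 for CPPED1, and the lines without an active copy changed by -0.0125 each.

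MACF1 and DST encode spectraplakins, which link actin to microtubules and intermediate filaments. Their 111-nt exons, shown above, are identical at 60 of 111 positions (54.1%). MACF1 inclusion was 0.09 and 0.11 in siTIP60 libraries of MSCV cells against 0.16 and 0.24 with siControl, 0.08 and 0.13 with siTIP60 against 0.11 and 0.22 with siControl in KD-TIP60 cells, and 0.07 and 0.18 with siTIP60 against 0.06 and 0.09 with siControl in WT-TIP60 cells. DST inclusion was 0.93 and 0.85 with siTIP60 against 0.97 and 0.91 with siControl in MSCV cells, 0.94 and 0.93 with siTIP60 against 0.96 and 0.95 with siControl in KD-TIP60 cells, and 0.82 and 0.73 with siTIP60 against 0.97 and 0.93 with siControl in WT-TIP60 cells. The interaction was -0.13 for MACF1 (SE 0.0336) and 0.14 for DST (SE 0.0295), with limma adjusted p = 1.00 for each. The DST exon thus lost inclusion mainly in the line with the active copy, and its 2 siTIP60 libraries there were the lowest of the 12.

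VRK3, a pseudokinase of the vaccinia-related kinase family, also differed mainly in WT-TIP60 cells. Its inclusion was 0.78 and 0.73 with siTIP60 against 0.76 and 0.74 with siControl in MSCV cells, 0.83 and 0.87 with siTIP60 against 0.88 and 0.84 with siControl in KD-TIP60 cells, and 0.70 and 0.67 with siTIP60 against 0.84 and 0.85 with siControl in WT-TIP60 cells (interaction 0.158, SE 0.0296). HDAC7, a class IIa histone deacetylase, responded in all 3 lines, with an effect of -0.283 without and -0.515 with an active copy. Its siTIP60 levels, 0.25 to 0.50 in MSCV and KD-TIP60 cells and 0.29 and 0.37 in WT-TIP60 cells, overlapped. The WT-TIP60 siControl levels of 0.78 and 0.91 were the highest of the 12 libraries, and the interaction of HDAC7 was 0.233 (SE 0.0551). MSCV siTIP60 replicate 2 had 10 isoform-specific reads for HDAC7, the least that was allowed.

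Of the remaining exons with a higher interaction, CASP1, the caspase that processes interleukin-1 beta, had an effect of 0.085 without and -0.125 with an active copy (interaction 0.21, SE 0.0599). RAB9A, a GTPase of endosome to Golgi transport, had 0.06 without and -0.135 with the copy for an exon of the 5' UTR. ATP5S, a factor of the mitochondrial ATP synthase, had 0.08 without and -0.075 with it. In ARAP1, a GTPase-activating protein for Arf proteins, and ALDH16A1, an aldehyde dehydrogenase family member, the effects were -0.0875 and -0.0025 without against -0.265 and -0.13 with an active copy. The mean without the copy joined unlike values of MSCV and KD-TIP60 cells in ARAP1 (-0.005 and -0.17), RAB9A (0.105 and 0.015) and ATP5S (0.13 and 0.03). In these KD-TIP60 cells lay nearer to WT-TIP60 cells than MSCV cells did. The 2 lines were close in CASP1 (0.095 and 0.075) and ALDH16A1 (-0.005 and 0). Apart from ARAP1, the 6 same-number differences of each named exon were separated between the 2 lines without and the line with an active copy, which the choice of the exons favours.

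The siRNA effect averaged over the 3 lines gave a list of responsive exons on a contrast that is orthogonal to the interaction in this balanced design. Inclusion fell with siTIP60 in 101 events (3.75% of those tested) and rose in 14 (0.519%), in 104 genes. The 115 calls became 59 without the replicate block and 41 to 124 when 1 library was left out. Signed by the direction of that average, the response was larger without an active copy in 84 of the 115 events (73%), smaller in 29 and equal in 2. Over all tested events it was larger in 1476 (54.8%), smaller in 1024 and equal in 195. Ties thus lower the share over all events more than that of the list. The median response was 0.147 without and 0.12 with an active copy, a median difference of 0.02 beside 0.0025 over all events. Both replicate numbers had the larger response without the copy in 57 events and the smaller one in 18. MSCV cells exceeded WT-TIP60 cells in 75 and KD-TIP60 cells exceeded them in 80, and MSCV cells exceeded KD-TIP60 cells in 44. The share moved with the WT-TIP60 libraries: leaving out 1 of them gave 54.5% to 63%, beside 51.4% to 55% over all events. Such a fit is no longer balanced, so that its average and interaction are not orthogonal. The choice of events by the average can then shift the share by itself, and these fits cannot decide how stable the share is.

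Among the 10 exons with the smallest p for the average effect, 4 coding exons had interactions of 0.045 or less in size, those of ARHGAP17, SBF1, AKT2 and ABI1. ARHGAP17, a GTPase-activating protein, had inclusion of 0.11 and 0.37 with siTIP60 against 0.59 and 0.77 with siControl in MSCV cells, 0.05 and 0.33 with siTIP60 against 0.60 and 0.82 with siControl in KD-TIP60 cells, and 0.07 and 0.36 with siTIP60 against 0.61 and 0.87 with siControl in WT-TIP60 cells. Its average effect was -0.495 (SE 0.0168, limma adjusted p = 0.000209) and its interaction 0.045, with a 95% interval of -0.0418 to 0.132. The call of that average was lost without the replicate block (limma adjusted p = 0.0533) and with the read ratio, the share of isoform-specific reads that keep the exon in place of the deposited level (0.0626), over a range of 2.5e-05 to 0.0626 in all alternatives. For SBF1, a myotubularin-related protein, the average effect was -0.473 and the interaction -0.0125 (-0.124 to 0.0987). For the kinase AKT2 they were -0.118 and 0.01 (-0.0284 to 0.0484). The intervals bound the differences without showing that they are nil.

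Exons of 2 genes of the actin cytoskeleton had wider intervals. MYL6, the essential light chain of myosin, fell by 0.505 on average with an interaction of -0.06 (-0.235 to 0.115), and ABI1, a subunit of the WAVE complex, fell by 0.41 with an interaction of -0.03 (-0.197 to 0.137). PPP3CB, a catalytic subunit of calcineurin, was the named exon that rose: inclusion was 0.94 and 0.88 with siTIP60 against 0.62 and 0.50 with siControl in MSCV cells, 0.88 in both with siTIP60 against 0.59 and 0.50 with siControl in KD-TIP60 cells, and 0.85 and 0.79 with siTIP60 against 0.65 and 0.50 with siControl in WT-TIP60 cells. Its interaction was 0.0975 (-0.00795 to 0.203), and both WT-TIP60 siTIP60 libraries lay below the other siTIP60 libraries. The zinc finger factor MAZ fell by 0.125 with an interaction of -0.0525 (-0.112 to 0.00682), and the call of its average was lost without the replicate block. MARK3, HNRNPC and HDAC7, described above, complete the 10.

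**Figure D2:**
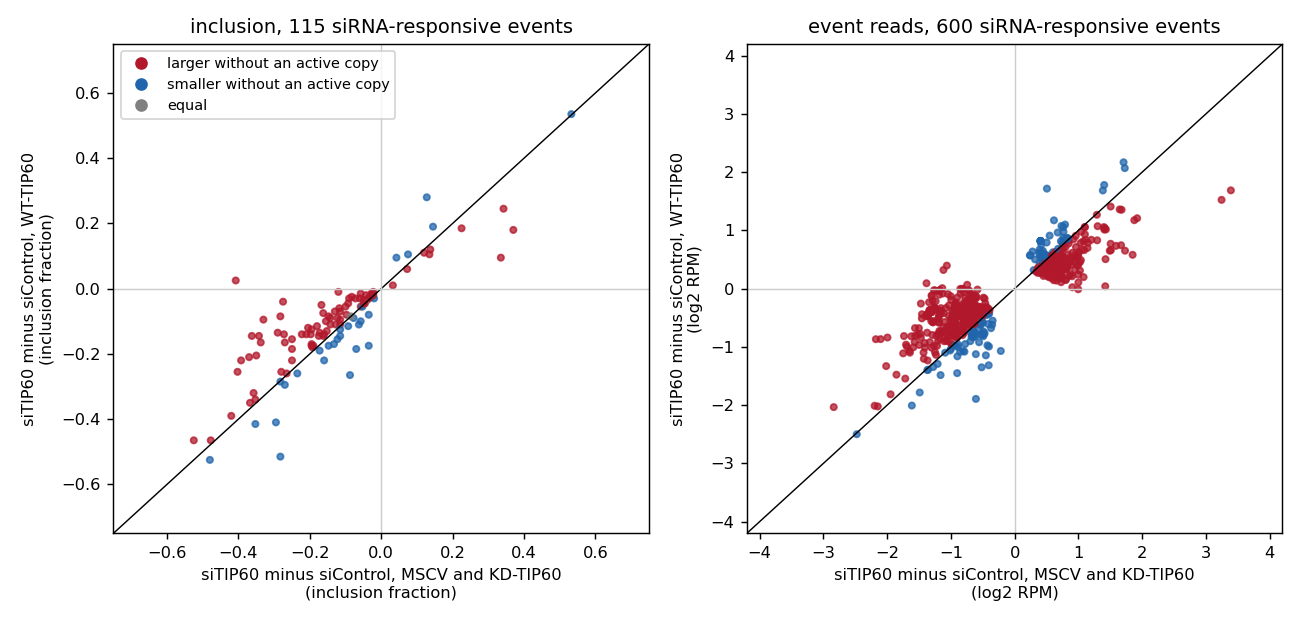
siRNA effect (siTIP60 minus siControl) averaged over MSCV and KD-TIP60 cells on the horizontal axis and in WT-TIP60 cells on the vertical axis, for the 115 events with an average effect on inclusion (left) and the 600 with one on event reads (right, log2), each point 1 event and the line equality. Points between the line and the horizontal axis, in red, had the larger response without an active copy, 84 of 115 and 483 of 600.

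Event reads, all reads that fit an isoform of the event in RPM, stood in for transcript level over the exons of an event and are not gene counts. In such bulk libraries fewer expressing cells and less RNA per cell cannot be told apart. No event passed the correction for the interaction (limma on log2 of RPM plus 0.5; 0% called, smallest adjusted p = 0.627). At an unadjusted p under 0.05 it was lower in 92 events (3.41%) and higher in 48 (1.78%). Together these are close to the threshold of 0.05 as a share. All 4 differences without an active copy lay below both with one in 410 events (15.2%) and above both in 228 (8.46%). The share so separated without any true difference was not estimated here either. The interaction had r = 0.431 between replicate numbers across events, against 0.839 for the average effect.

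Over the 3 lines event reads fell in 361 events (13.4%) and rose in 239 (8.87%), in 425 genes. These 600 calls became 39 without the replicate block and 289 to 763 when 1 library was left out. The response was larger without an active copy in 483 of these 600 (80.5%) and smaller in 117, beside 66.9% larger over all tested events. Its median was 0.81 without and 0.50 with an active copy (log2), and the median difference was 0.29 beside 0.13 over all events. Both replicate numbers had the larger response without the copy in 394 events and the smaller one in 64. MSCV cells exceeded WT-TIP60 cells in 486 events, KD-TIP60 cells exceeded them in 457, and MSCV cells exceeded KD-TIP60 cells in 308. The share was 83.7% among events that fell and 75.7% among those that rose, and it ran from 73.9% to 86.9% when 1 library was left out. Those fits are likewise unbalanced, so that the choice of events can shift the share. Several events can share a gene and its reads.

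DBN1, the gene of the actin-binding protein drebrin, had the smallest p of all events for the interaction in event reads. Its event had 44.3 and 63.7 RPM in siTIP60 libraries of MSCV cells against 72.6 and 133.0 with siControl. KD-TIP60 cells had 28.5 and 58.7 RPM with siTIP60 against 85.1 and 130.2 with siControl, and WT-TIP60 cells 112.5 and 179.0 with siTIP60 against 84.7 and 152.1 with siControl. Within each replicate number the siTIP60 libraries without an active copy were the lowest and the WT-TIP60 siTIP60 library the highest. The log2 effect was -1.12 without and 0.32 with an active copy, an interaction of -1.44 (SE 0.239, 95% interval -1.98 to -0.89, limma adjusted p = 0.627). Between lines under siTIP60 the DBN1 difference was -1.60 on the log2 scale (limma adjusted p = 0.0205), the single such call among 2695 events (0.0371%), against -0.16 under siControl. The call of DBN1 was lost without a replicate block, with median ratio scaling and in 10 of the 12 fits that left out 1 library, where the value stayed between -1.68 and -1.51.

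FDPS, the farnesyl diphosphate synthase of the mevalonate pathway, had 224.6 and 141.0 RPM with siTIP60 against 715.5 and 321.4 with siControl in MSCV cells, 314.4 and 126.0 with siTIP60 against 796.3 and 407.3 with siControl in KD-TIP60 cells, and 438.0 and 255.8 with siTIP60 against 470.4 and 340.1 with siControl in WT-TIP60 cells. The log2 effect was -1.47 without and -0.26 with an active copy (interaction -1.21, SE 0.271). MBOAT7, an acyltransferase for lysophosphatidylinositol, had -1.26 without and -0.33 with it, and ARAP3, a GTPase-activating protein for Arf proteins, -1.34 without and -0.23 with it. For these 3 genes the siTIP60 libraries of the lines without an active copy were the lowest of their replicate number. TRIP10, an F-BAR protein that binds Cdc42, had effects of -1.06 without and 0.40 with an active copy, and CALM3, a calmodulin gene, -0.75 without and 0.07 with it. Limma adjusted p-values of the 5 interactions lay between 0.632 and 0.707.

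MMP28, a secreted metalloproteinase of epithelia, had the largest siRNA response of the named events. It stood at 410.9 and 630.0 RPM with siTIP60 against 35.8 and 65.0 with siControl in MSCV cells, 645.0 and 1143 with siTIP60 against 94.2 and 69.6 with siControl in KD-TIP60 cells, and 216.7 and 285.8 with siTIP60 against 94.8 and 62.4 with siControl in WT-TIP60 cells. MMP28 was thus higher with siTIP60 in every line, by 3.39 on the log2 scale without and 1.69 with an active copy (interaction 1.70, SE 0.490, limma adjusted p = 0.707). SLC37A2, whose exon is described above, had effects of 1.73 without and 0.65 with the copy. ACYP2, an acylphosphatase, had 1.42 without and 0.04 with it, and SCFD2, a Sec1 family member, 0.40 without and -0.66 with it. MFGE8, a milk fat globule protein that bridges integrins and phosphatidylserine, had 0.67 without and -0.27 with an active copy.

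CDKN1A encodes the cyclin-dependent kinase inhibitor p21 and is a classical p53 target. Its event had 932.0 and 1516 RPM with siTIP60 against 329.6 and 724.0 with siControl in MSCV cells, 768.3 and 1167 with siTIP60 against 563.1 and 593.8 with siControl in KD-TIP60 cells, and 465.9 and 872.1 with siTIP60 against 536.5 and 769.2 with siControl in WT-TIP60 cells. All 4 differences without an active copy were positive, while the 2 of WT-TIP60 cells had opposite signs. The interaction of CDKN1A was 1.01 on the log2 scale (SE 0.293, limma unadjusted p = 0.00801, adjusted p = 0.707), from 1.00 without and -0.01 with an active copy.

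**Figure D3:**
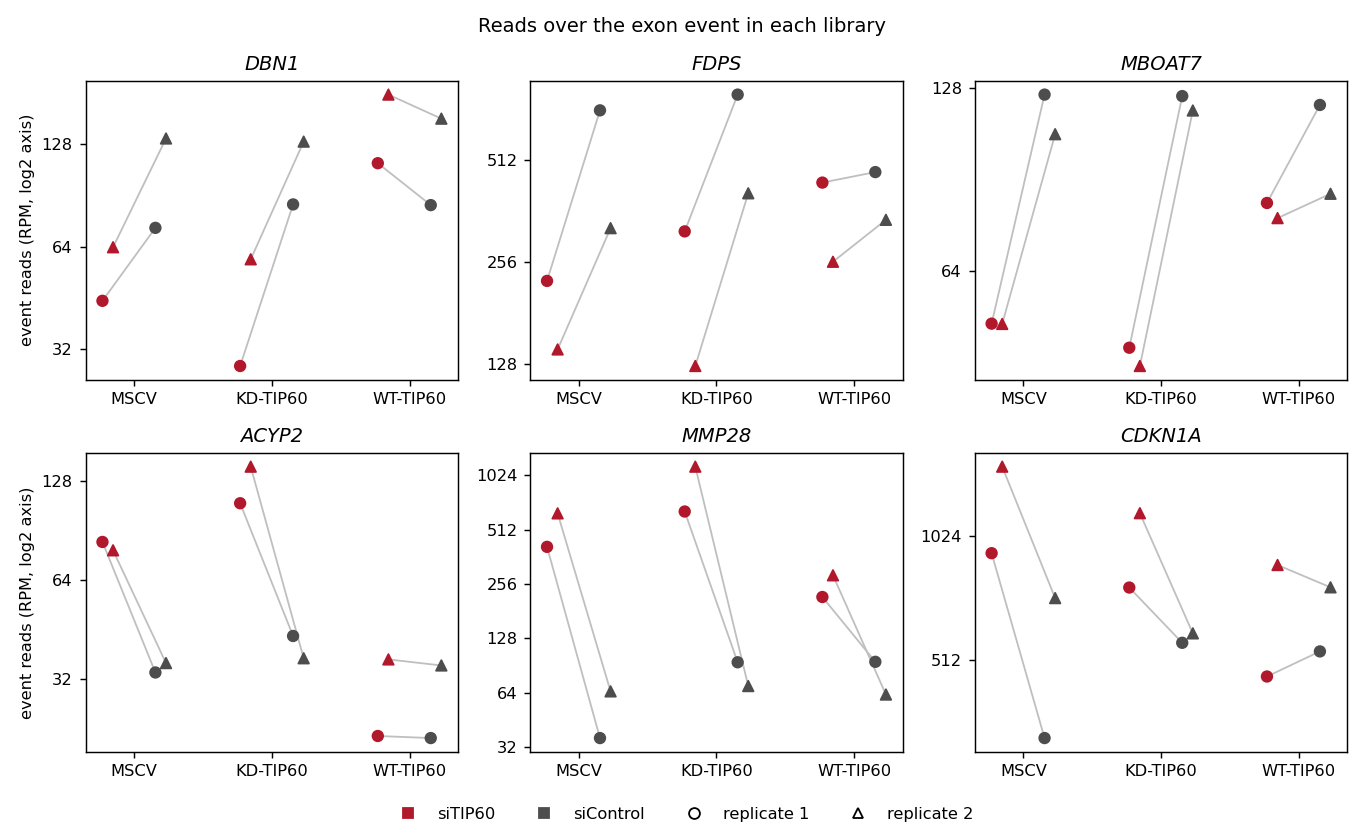
Event reads in RPM (log2 axis) for 6 events in each of the 12 libraries, by line, with siTIP60 (red) left of siControl (grey), circles for replicate 1 and triangles for replicate 2, and lines joining same-number libraries. The slopes in WT-TIP60 cells are flatter than in MSCV and KD-TIP60 cells for all 6, and that of DBN1 has the opposite sign.

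Gene lists are given by the count and median of their events' interaction in event reads, beside 57% lower, 43% higher and a median of -0.06 (log2) over all 2695 events. Among p53 targets 8 of 10 events in 8 genes were higher, with a median interaction of 0.47 on the log2 scale, and 5 were separated upward beside 8.46% of all events. The list's median siRNA effect was -0.01 without and -0.29 with an active copy. The separated events were those of CDKN1A, GADD45A, TP53I3, BBC3 and RRM2B. TP53I3, a quinone oxidoreductase induced by p53, had 3128 and 2314 RPM with siTIP60 against 778.8 and 636.3 with siControl in MSCV cells, 2397 and 3460 with siTIP60 against 755.0 and 881.7 with siControl in KD-TIP60 cells, and 991.7 and 1336 with siTIP60 against 415.0 and 625.8 with siControl in WT-TIP60 cells. Its effect was 1.88 without and 1.18 with an active copy (interaction 0.70, limma unadjusted p = 0.0648). CCNG1, a cyclin induced by p53, had the lower effects, -2.15 without and -2.02 with an active copy at the exon of smaller standard error, and both of its events had a lower interaction. The median of the list stayed between 0.34 and 0.56 over all alternatives.

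Cell cycle and mitosis genes lay on the other side. Of 27 events in 14 genes 22 were lower, the median interaction was -0.47, and the median effect was -0.77 without and -0.17 with an active copy (log2). Named here after their values were seen, TPX2, a spindle assembly factor, had effects of -0.85 without and 0.28 with the copy, and CDC25B, a phosphatase that activates cyclin-dependent kinases, -0.83 without and -0.01 with it (limma unadjusted p = 0.0409 and 0.0113). The 5 higher events were 4 of ANAPC11 and 1 of CCND3. Events of SKA2, a kinetochore protein, had fewer reads with siTIP60 in both settings, by 1.06 without and 0.66 with an active copy at its named exon. The list's median ranged from -0.66 to -0.21 over the alternatives.

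Splicing factor genes had lower interactions as well. All 9 events of 7 SR and SR-related genes were lower, with a median of -0.41 from effects of -0.77 without and -0.02 with an active copy, and 4 were separated downward beside 15.2% of all events. TRA2A, an SR-like regulator, had -0.88 without and -0.02 with an active copy at its lowest event, named after its value was seen. Of 30 events of hnRNPs and other splicing regulators 23 were lower, with a median of -0.31. All 6 events of the TIP60/NuA4 complex outside KAT5, in BRD8, MORF4L2 and RUVBL2, were lower, with a median of -0.47. MORF4L2, an MRG domain protein, had an effect of -0.72 without and -0.18 with an active copy (unadjusted p = 0.0476). Of 19 interferon response events 16 were lower (median -0.49), but 7 of the 19 came from IRF3. Medians of these 4 lists stayed below 0 under every alternative, between -0.64 and -0.13.

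Of 10 epithelial marker events in 7 genes 6 had a higher and 4 a lower interaction in event reads, with a median of 0.34 (log2) that ranged from 0.03 to 0.52 over the alternatives. Their summed level was 2713 and 3147 RPM with siTIP60 against 2695 and 3173 with siControl in MSCV cells, 4093 and 4307 with siTIP60 against 3194 and 3280 with siControl in KD-TIP60 cells, and 4620 and 3406 with siTIP60 against 4310 and 4150 with siControl in WT-TIP60 cells. FN1, the fibronectin gene and the one mesenchymal marker tested, had 376.6 and 135.7 RPM with siTIP60 against 168.5 and 43.1 with siControl in MSCV cells, 785.4 and 366.2 with siTIP60 against 234.7 and 83.0 with siControl in KD-TIP60 cells, and 171.4 and 15.4 with siTIP60 against 92.3 and 9.96 with siControl in WT-TIP60 cells. FN1 was thus higher with siTIP60 in every same-number pair, with a log2 effect of 1.67 without and 0.74 with an active copy and an interaction of 0.92 (SE 0.669, limma adjusted p = 1.00). The part of these marker differences in the changes of the other lists was not tested.

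**Figure D4:**
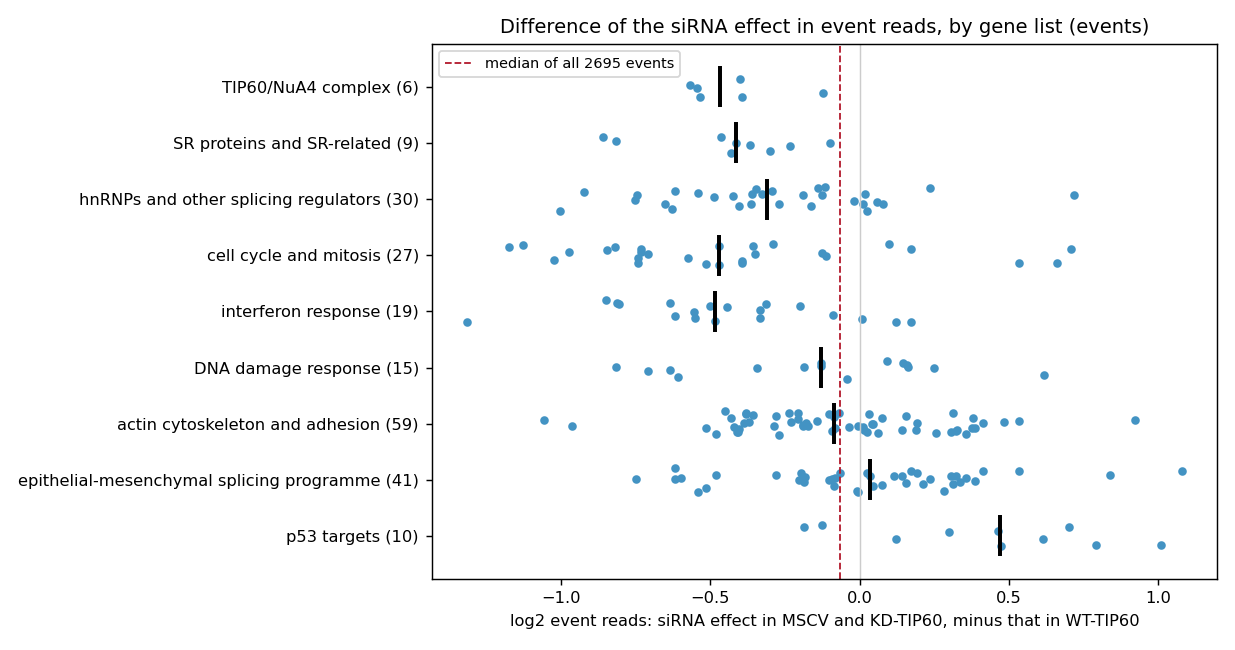
Interaction in event reads (log2; the siRNA effect in MSCV and KD-TIP60 cells minus that in WT-TIP60 cells) for each event of 9 gene lists, points spread vertically for visibility, with the list's median as a black bar and the median of all 2695 events as a dashed line. Medians of the cell cycle, splicing factor, TIP60 complex and interferon lists lie between -0.49 and -0.31, and that of p53 targets at 0.47.

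For inclusion the list medians ran from -0.015 (cell cycle and mitosis) to 0.005 (epithelial markers), apart from the mesenchymal list, which held FN1 alone. By count some lists stood off the whole, and 11 of 15 DNA damage response events were lower. Over all events 52.5% of interactions were lower and the median was -0.0025. Of 41 events, all those tested in 26 genes known for exons that switch between epithelial and mesenchymal cells, 30 were lower, with a median of -0.0125. At an unadjusted p under 0.05 stood 5 of them: SLC37A2, MARK3, CLSTN1 and ITGA6 (lower) and DST (higher), that is 4 lower and 1 higher of 41, beside 2% lower and 1.52% higher over all events. In CLSTN1, a calsyntenin, the effect was -0.12 without and -0.01 with an active copy, and in ITGA6, the integrin subunit of hemidesmosomes, -0.283 without and -0.085 with it, both named after their values were seen. The list's median effect was -0.035 without and 0 with an active copy. Beyond the exons already named, the members of smallest p were UIMC1 (-0.175) for DNA damage response, SKA2 (-0.0975) for cell cycle, TP53I3 (-0.065) for p53 targets, SRSF7 (-0.0625) for SR proteins, MORF4L2 (-0.0825, but 0.00966 with the read ratio) for the TIP60 complex, EXOSC1 (-0.0725) for RNA decay, MAVS (0.135) for interferon response, TP63 (0.158, but 0 with the read ratio) for epithelial markers and FN1 (0.155) for mesenchymal markers, none past the correction.

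Set directly against each other, the lines without and with an active copy had more events under the unadjusted threshold with siTIP60 than with siControl. In event reads the lines without the copy were lower in 225 events (8.35%) and higher in 121 (4.49%) under siTIP60 at an unadjusted p under 0.05, against 58 (2.15%) and 32 (1.19%) under siControl. In inclusion they were lower in 89 (3.3%) and higher in 53 (1.97%) under siTIP60, against 39 (1.45%) and 54 (2%) under siControl. The 2 lines without an active copy differed from each other in their siRNA effect at that threshold in 19 events for reads and 80 for inclusion, with 0 past the correction for each. For the difference of the siRNA effect between MSCV and WT-TIP60 cells these counts were 102 for reads and 96 for inclusion, and between KD-TIP60 and WT-TIP60 cells 124 for reads and 78 for inclusion. The counts for inclusion were thus of like size in all 3 pairs of lines, and that for reads was lowest between the 2 lines without an active copy. These 3 pairs share libraries, and whether the counts differ was not tested.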

How the data were processed

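Exon inclusion was measured by RNA-seq (TRIzol, stranded mRNA kit) in 12 libraries of MCF10A derivatives. Reads were aligned with STAR to hg38, per the submitters' processing notes; no version is stated there. The deposited inclusion level, a fraction, is named in the file headers as the posterior mean of MISO, given to 2 decimals with its interval and with numbers of reads that fit the form with the exon, the form without it, both or neither. It is a share within an event and is not scaled to library size. Genes and exon classes came from GENCODE 29.

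Reads that fit only 1 form are isoform-specific, and 10 were required in every library. Of the 2695 events kept, 169 lie on alternate contigs and 71 match more than 1 gene; they stay in counts and were not named. Event reads (either or both forms) were expressed per 1000000 over all listed events (RPM), with 0.5 added before log2. Both readouts were fitted with limma 3.58.1 in R 4.3.3 (6 groups plus replicate number as a block, variance trend on log2 isoform-specific reads, robust), with two-sided p-values adjusted by Benjamini-Hochberg over 2695 events. The block was used because same-number libraries deviated together in all 15 pairs of groups (r of at least 0.559). The scripts were tested on simulated data. Sequences were taken from GENCODE transcripts.

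Named exons were those past the threshold, filled to 8 per direction (event reads: 6) by smallest p with the same sign and a size of at least 0.05 (event reads: 0.3) in both replicate numbers, the 10 responsive exons of smallest p, and the member of smallest p of each list. Members, lists and rules were chosen with earlier results of these data known. Alternatives covered read minimum, scale, model, weights, scaling, block and each library left out. The event called under the read ratio alone is not reported here by name.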

Additional observations from a re-analysis of the deposited data

Results flagged for a closer look

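In 8 named results every same-number siRNA difference in MSCV and KD-TIP60 cells went one way and both differences in WT-TIP60 cells went the other. In inclusion these were USP48 (interaction -0.113), MACF1 (-0.13) and MORF4L2 (-0.0825, but 0.00966 with the read ratio), lower without and higher with an active copy, and CASP1 (0.21) and ATP5S (0.155), the reverse. In event reads on the log2 scale these were DBN1 (-1.44) and TRIP10 (-1.46), lower without and higher with the copy, and SCFD2 (1.07), the reverse. The difference itself was tested as the interaction, and none of the 8 passed the limma correction. The choice of named events by a small p of the interaction favours this pattern. Over all 2695 events this pattern occurred 13 and 9 times in inclusion (lower and higher without the copy) and 64 and 32 times in event reads.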

How the results depend on the processing

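The interaction in inclusion had 0 calls in all alternatives except the ratio of isoform-specific reads, which called 1; that in event reads had 0 calls in all alternatives run. Without the replicate block the average siRNA effect had 59 inclusion calls in place of 115 and 39 event-read calls in place of 600, and the call between lines under siTIP60 gave 0; the block ended no call of the interaction. Inclusion calls of the average numbered 214 with log2 odds, 70 with the read ratio, 346 with the quasi-binomial model and 251 with interval weights. Left-out libraries gave 41 to 124 inclusion calls and 289 to 763 event-read calls of the average, lowest without KD-TIP60 siControl replicate 1 and without WT-TIP60 siTIP60 replicate 2; counts fell by over 1.5 times without any WT-TIP60 library or either KD-TIP60 siControl library in both readouts, and for inclusion also without MSCV siControl replicate 2 or KD-TIP60 siTIP60 replicate 1. Between lines under siTIP60 median ratio scaling gave 0 calls, voom weights 2 (DBN1 and SLC37A2), and left-out libraries 0 to 1. The responsive share with a larger response without an active copy ranged from 54.5% to 83.1% for inclusion and from 73.9% to 86.9% for event reads over left-out libraries. In these unbalanced fits the average and the interaction are not orthogonal, so that part of the range can come from the choice of events. Counting each named result under each alternative, 964 kept direction and side of the threshold, 3 lost a call and 2 did not keep direction. The averages of ARHGAP17 and MAZ lost their calls without the block, and that of ARHGAP17 with the read ratio. Under the read ratio MORF4L2 turned to 0.00966 and TP63 to 0, and the cause was not tested. Most of these results were interactions far from the threshold, and the choice of named events favoured a kept direction. The count of 964 is therefore no measure of robustness. Median ratio scaling moved the median interaction in event reads from -0.06 to 0.03 (log2). Replicate 2 libraries, with medians of 13 to 17 isoform-specific reads an event, limit the precision of inclusion.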
